A study of Mus musculus with 24 samples.

Results

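The genes described are the semaphorins and their plexin receptors, the netrins and the Unc5 receptors, the Slits and their Robo receptors, and the ephrins and their Eph receptors. They were taken by symbol from a table of protein-coding genes, and 65 of its 21948 genes carry such a symbol. There were 20 semaphorins, 9 plexins, 3 netrins, 4 Unc5 receptors, 3 Slits, 4 Robo receptors, 8 ephrins and 14 Eph receptors. Of the 65 genes, 44 reached an FPKM (fragments mapped to a gene, scaled by transcript length and by the library's mapped fragments) of 1 or more in at least 4 of 24 libraries and were tested, out of 11767 genes that passed this filter.

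These families were first studied as signals that attract or repel growing axons, and they also act between cells outside the nervous system. Semaphorins bind plexins, the secreted class mostly with a neuropilin as coreceptor, Slits bind Robo receptors, netrins bind Dcc, neogenin and the Unc5 receptors, and ephrins bind Eph receptors on neighbouring cells, where both partners can signal. In bone, Sema3a, Sema4d, Slit3, netrin-1 and the pair of ephrin-B2 and EphB4 are known from mouse work for signals between osteoblasts, osteoclasts and vessels, and Eph and ephrin signals help to keep cell groups apart at boundaries in the embryo.

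The RNA came from sorted skeletal stem and progenitor cells of male mice, labelled wild type, at postnatal day 10. All cells had been sorted as negative for CD45, Ter119, CD31, Thy1, 6C3 and CD105 and positive for CD200, and were then split by embigin (EMB), a surface glycoprotein. They came from the spine, where GFP that follows a Zic1-linked Cre separated GFP+ from GFP- cells, or from femur and tibia, where all cells were GFP-. Splitting vertebral GFP+, vertebral GFP- and long bone cells by EMB gave 6 groups of 4 libraries, and these 3 populations are called sources. GFP marks any cell whose ancestors drove the Cre, so a GFP+ cell need not express Zic1 when it is sorted, and vertebral GFP+ cells differ from long bone cells in lineage label as well as in site. The titles of the 4 vertebral GFP- EMB+ libraries disagree with their cell type entries, and the entries were used. All long bone EMB+ titles carry the same replicate number, so these libraries were numbered 1 to 4 by accession order, as names alone. The labels call the libraries biological replicates without saying which animals they came from, so a p-value here reflects only how much libraries of a group varied, which may be technical.

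The summed FPKM of a library lay between 382364 and 568495, and 10158 to 11204 genes per library reached 1 FPKM. Read depth is unknown, since FPKM keeps no read counts. Emb was 46.6 to 56.5, 44.4 to 55.3 and 30.1 to 40.4 FPKM in the EMB+ libraries of vertebral GFP+, vertebral GFP- and long bone cells, against 0.238 to 0.543, 0.855 to 1.32 and 0.685 to 1.06 in their EMB- libraries, and Zic1 averaged 1.87 and 0.827 FPKM in the GFP+ groups against at most 0.0415 elsewhere. All 12 cartilage cell markers examined were detected in every group, and 10 endothelial markers together stayed at or below 18.2 FPKM in each library. Long bone EMB- replicate 4 stood apart, with a correlation to its own group as low as 0.925 against 0.978 or more in the 5 other groups. In bulk RNA, fewer cells of a type and less RNA per cell cannot be told apart.

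Guidance genes were expressed at low to moderate levels. Of the 65 genes, 8 averaged 10 FPKM or more over the 24 libraries, 17 averaged 5 or more, and 23 reached 1 FPKM in all 24 libraries. The highest mean belonged to Plxnb2, a plexin for class 4 semaphorins, at 33.7 FPKM, followed by Sema3d at 30.9, Efna1 at 25.9, Sema3c at 21.5, Sema3b at 18.7, Ephb4 at 18.3, Efnb1 at 18.0 and Ntn4 at 17.3. The 21 genes that did not pass the filter never exceeded 1.62 FPKM, the value of Efnb3 in its highest library. Among them were Robo4, the Robo receptor of blood vessels, with at most 0.43 FPKM, Slit1 with at most 0.43 FPKM and Plxnc1 with at most 0.75 FPKM.

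**Figure D1:**
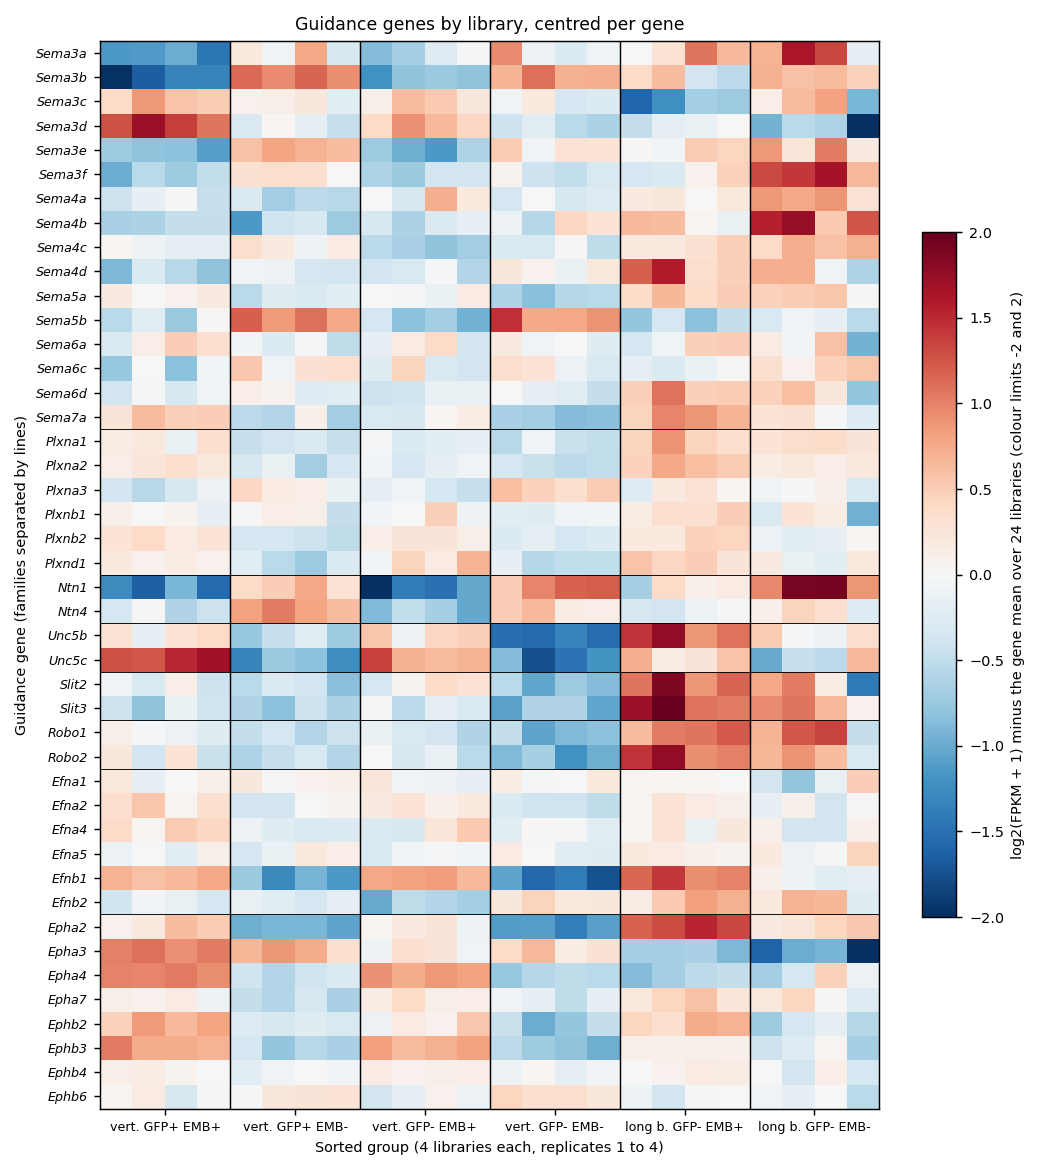
Each row is 1 of the 44 tested guidance genes and each column 1 of the 24 libraries. Colour gives log2(FPKM + 1) minus the gene's mean over all libraries, with red above and blue below the mean and colours capped at -2 and 2. In the EMB+ columns Efnb1 and Unc5c are red in all 3 cell sources, Epha4 and Ephb3 most strongly in the vertebral ones, while Slit2, Slit3, Robo1 and Robo2 are red in the long bone EMB+ columns.

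The promoters of a few of these genes are shown because the genes stand for the patterns described next: Efnb1 and Unc5c were higher in EMB+ cells of all 3 sources, Ntn4 was lower in EMB+ cells of both vertebral sources, and Slit3 was higher in long bones in all 4 comparisons by site. Each sequence runs 5′ to 3′ on the gene's strand from 250 bases before to 50 bases after the start that RefSeq gives on GRCm38.p6, and all 4 genes lie on the plus strand. RefSeq's starts are not those of the deposited table, whose positions for Efnb1 and Slit3 are given elsewhere. The Efnb1 window ends before the start in that table. The Unc5c and Ntn4 windows begin after their starts there, chr3:141465216 and chr10:93640681, so both windows lie inside the gene as deposited. Capitals mark matches on either strand to the Runx motif TGTGGT, the Sox motifs ACAAAG and ACAATG, or the GC box GGGCGG, with overlapping matches counted each. The windows are chrX:99135811-99136110, chr3:141465314-141465613, chr10:93640799-93641098 and chr11:35121206-35121505.
Efnb1: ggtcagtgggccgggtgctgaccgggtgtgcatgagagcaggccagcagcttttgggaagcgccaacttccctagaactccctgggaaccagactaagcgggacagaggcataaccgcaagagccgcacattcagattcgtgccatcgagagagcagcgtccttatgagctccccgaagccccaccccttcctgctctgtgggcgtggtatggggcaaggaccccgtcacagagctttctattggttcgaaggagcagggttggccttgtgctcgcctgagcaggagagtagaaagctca
Unc5c: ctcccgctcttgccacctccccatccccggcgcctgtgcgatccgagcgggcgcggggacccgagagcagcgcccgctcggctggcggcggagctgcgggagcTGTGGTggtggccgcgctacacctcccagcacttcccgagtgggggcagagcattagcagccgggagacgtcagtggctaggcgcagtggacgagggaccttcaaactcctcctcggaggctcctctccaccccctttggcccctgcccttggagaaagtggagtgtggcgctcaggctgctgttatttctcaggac
Ntn4: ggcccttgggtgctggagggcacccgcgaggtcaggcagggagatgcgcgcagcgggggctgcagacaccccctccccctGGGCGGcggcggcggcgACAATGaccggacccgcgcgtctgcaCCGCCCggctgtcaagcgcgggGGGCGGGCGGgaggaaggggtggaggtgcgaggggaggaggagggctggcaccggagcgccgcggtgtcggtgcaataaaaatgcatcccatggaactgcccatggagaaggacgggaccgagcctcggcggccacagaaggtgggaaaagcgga
Slit3: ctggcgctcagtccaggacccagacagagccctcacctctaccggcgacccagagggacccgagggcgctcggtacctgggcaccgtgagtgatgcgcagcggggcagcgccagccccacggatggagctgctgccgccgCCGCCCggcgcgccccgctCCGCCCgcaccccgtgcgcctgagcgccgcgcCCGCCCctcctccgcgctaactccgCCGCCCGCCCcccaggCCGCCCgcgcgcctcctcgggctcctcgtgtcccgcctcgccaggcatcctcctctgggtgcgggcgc
The Efnb1 window held no match, that of Unc5c held 1 Runx match, that of Ntn4 held 1 Sox and 4 GC box matches, and that of Slit3 held 6 GC box matches. Their GC contents were 59.7%, 68.3%, 72.0% and 78.3%. A promoter was found for 56 of the 65 genes, and of these 7 held the Runx motif, 14 a Sox motif and 40 the GC box. Over all 27025 promoters of the same length the shares were 16.9%, 28.8% and 35.9%. The median GC content was 64.7% for the guidance genes and 52.7% for all promoters, and a match to such short motifs only describes the letters.

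EMB+ and EMB- cells were compared within each source to ask which guidance genes go with embigin. In vertebral GFP+ cells 17 of the 44 genes were higher and 9 lower in EMB+ cells (limma, Benjamini-Hochberg adjusted p under 0.05 over all genes tested), where 42.1% of all genes were higher and 7.85% lower. In vertebral GFP- cells 18 were higher and 9 lower, against 41.7% and 10.6% of all genes. In long bone cells 17 were higher and 7 lower, against 17.5% and 16% (1879) of all genes. The median change of the guidance genes, as log2(FPKM + 1), was 0.35, 0.22 and 0.24 in the 3 comparisons, beside 0.32, 0.30 and 0.08 for all genes. The median gene was thus shifted upward in vertebral EMB+ cells as deposited. Under other scalings the shares over all genes moved as well. Scaled by median ratio, 12 guidance genes were higher and 12 lower in vertebral GFP+ cells, beside 12.9% and 14.7% of all genes. In vertebral GFP- cells the split was 10 and 14, beside 15.3% and 19.7%, and in long bone cells 13 and 10, beside 12.2% and 18.3%. After quantile normalization it was 12 and 11 beside 14.7% and 13.6%, 13 and 12 beside 19.9% and 17.0%, and 19 and 7 beside 22.8% and 15.4%, in the same order. In a fit of the long bone libraries alone, 9 genes passed in place of 24: Efnb1, Epha2, Ephb2, Sema3c, Sema3f, Sema4b, Sema7a, Unc5b and Ntn1. The other 15 had adjusted p-values of 0.0518 to 0.205 there. That fit uses fewer libraries, and the share of all genes that passed in it is not given here.

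By family, 8 of the 14 Eph receptors and ephrins tested were higher and 0 lower in vertebral GFP+ cells by limma, 7 and 2 in vertebral GFP- cells and 5 and 1 in long bone cells. Of all genes 42.1%, 41.7% and 17.5% were higher and 7.85%, 10.6% and 16% lower in these sources. By median ratio the Eph and ephrin counts were 6 and 2, 5 and 4, and 4 and 1. The shares over all genes were then 12.9% and 14.7%, 15.3% and 19.7%, and 12.2% and 18.3%. Of the 16 semaphorins tested, 3 were higher and 6 lower, 3 and 4, and 3 and 5 in the same order, and by median ratio 2 were higher and 7 lower in each source. Both Unc5 receptors tested were higher and Ntn1 was lower in each source. The 3 comparisons share no library. Same-numbered vertebral GFP+ and GFP- libraries varied together, at correlations of 0.169 to 0.337 with EMB and 0.130 to 0.292 without. The vertebral comparisons may therefore not be independent. Across the 3 comparisons 11 of 44 guidance genes were higher in EMB+ cells each time, beside 10.4% of all genes: Efnb1, Epha2, Ephb2, Ephb3, Plxna2, Plxnb2, Plxnd1, Sema3d, Sema7a, Unc5b and Unc5c. Of these, Efnb1, Epha2, Ephb2, Sema7a and Unc5c were also higher in all 3 under both other scalings, where the counts were 5 beside 4.03% of all genes by median ratio and 8 beside 5.84% by quantiles. Ntn1 and Sema3b were lower in all 3 comparisons, under each scaling, beside 2.36% of all genes as deposited. By median ratio 5 genes were lower in all 3, Ntn4, Sema4c and Sema6c in addition, beside 4.03% of all genes. By quantiles it was again 2, beside 3.13%. Plxna2 was at the edge, with an adjusted p of 0.0499 in vertebral GFP- cells, and missed the threshold with the replicate number as a block (0.0557). In both vertebral comparisons 15 genes were higher and 6 lower, beside 30.1% and 5.92% of all genes. The 6 were Ntn1, Ntn4, Plxna3, Sema3b, Sema3e and Sema5b. By median ratio the split turned to 8 higher and 11 lower, beside 8.37% and 10.8% of all genes. By quantiles it was 9 and 9, beside 10% and 9.72%.

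**Figure D2:**
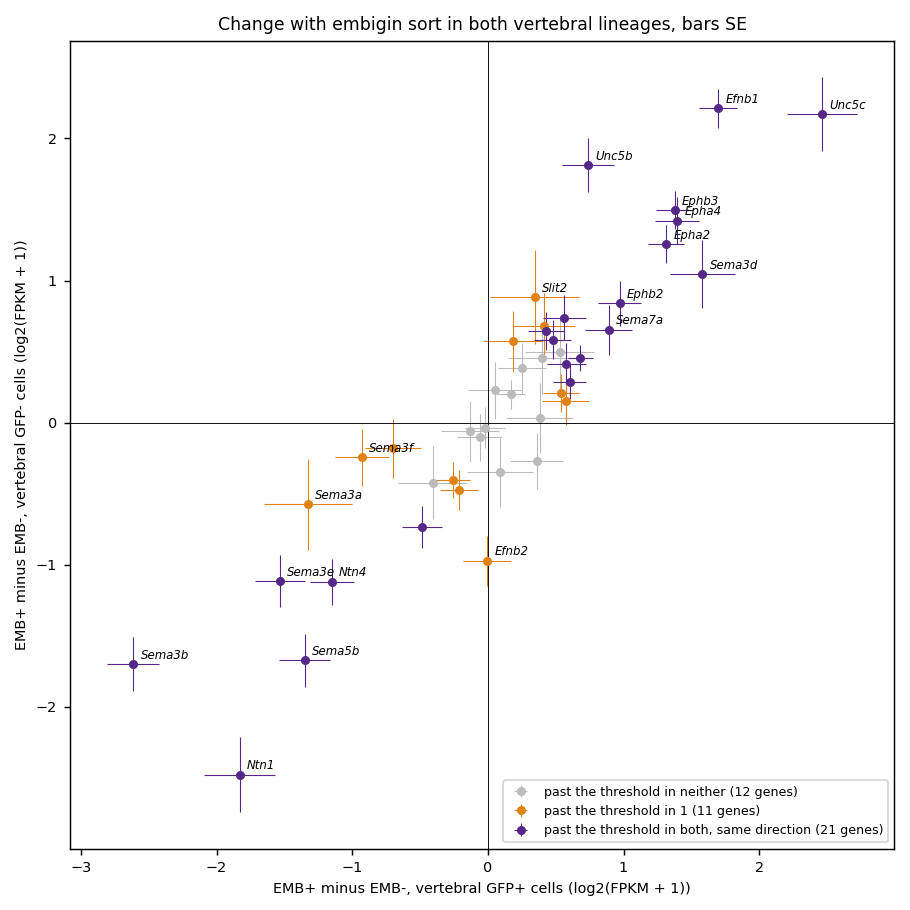
Each point is 1 of the 44 guidance genes, with its change between EMB+ and EMB- cells on log2(FPKM + 1) in vertebral GFP+ cells on the horizontal axis and in vertebral GFP- cells on the vertical axis, and bars of 1 SE. The 21 purple genes passed the threshold in both comparisons in the same direction, the 11 orange ones in 1 comparison and the 12 grey ones in neither. Genes are named where the change exceeded 0.8 in size in either comparison.

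Ephrins and Eph receptors held several of the largest differences. Efnb1 encodes ephrin-B1, a transmembrane ligand whose human gene is mutated in craniofrontonasal syndrome, and lies at chrX:99136130-99148991. It measured 24.4, 22.3, 23.5 and 25.4 FPKM in vertebral GFP+ EMB+ cells and 8.36, 5.41, 7.18 and 6.07 in GFP+ EMB- cells. In vertebral GFP- cells the values were 25.8, 26.2, 27.0 and 23.4 with EMB and 6.52, 4.23, 4.89 and 3.64 without. Long bone cells had 33.5, 40.6, 28.9 and 30.1 FPKM with EMB and 15.7, 13.6, 12.3 and 12.9 without. In each source the lowest EMB+ library was well above the highest EMB- library. The changes on log2(FPKM + 1) were 1.70 (SE 0.14, adjusted p = 4.94e-10), 2.21 (SE 0.14, adjusted p = 2.29e-12) and 1.22 (SE 0.14, adjusted p = 1.32e-07), in the order vertebral GFP+, vertebral GFP- and long bone. Means were 23.9 ± 1.32 against 6.75 ± 1.30, 25.6 ± 1.54 against 4.82 ± 1.24 and 33.3 ± 5.29 against 13.6 ± 1.48 FPKM (SD, n = 4).

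Among the receptors that bind B-type ephrins, Ephb3 was also higher in EMB+ cells of each source. With EMB, vertebral GFP+ libraries held 17.1, 13.8, 13.8 and 13.4 FPKM, while those without held 6.06, 4.17, 5.07 and 4.65. Vertebral GFP- cells showed 14.6, 12.8, 13.5 and 14.5 against 5.20, 4.40, 4.05 and 3.50 FPKM. All vertebral EMB+ libraries were thus above 12 FPKM and all vertebral EMB- libraries below 7 FPKM. Long bone EMB+ cells stayed at 8.51, 8.53, 8.61 and 8.56 FPKM, close together and above each of the EMB- libraries at 5.68, 6.40, 8.24 and 4.57. The changes were 1.38 (SE 0.14, adjusted p = 1.32e-08), 1.50 (SE 0.14, adjusted p = 2.22e-09) and 0.43 (SE 0.14, adjusted p = 0.0175) in the same order, and the last missed the threshold without long bone EMB- replicate 4 (0.0626) and under median-ratio scaling (0.0644). Ephb2, a close relative, was lower in level, at 4.25, 2.69 and 3.76 FPKM on average in EMB+ cells, and changed by 0.97, 0.84 and 0.99. Ephb4, the receptor of ephrin-B2 on osteoblasts, was the most abundant Eph receptor and nearly level, between 16.5 and 20.0 FPKM on average in every group, with adjusted p-values of 0.175, 0.108 and 0.0709 for the EMB comparisons.

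Epha4 can bind ephrins of both the A and the B type, and its highest levels were in vertebral EMB+ cells. Vertebral GFP+ cells had 6.98, 6.96, 7.26 and 6.68 FPKM with EMB and 2.06, 1.69, 2.06 and 2.34 without. GFP- vertebral libraries stood at 6.57, 5.74, 6.36 and 6.04 FPKM with EMB and 1.39, 1.71, 1.85 and 1.77 without. The long bone libraries held 1.21, 1.52, 1.80 and 1.91 FPKM with EMB and 1.52, 2.16, 4.57 and 2.72 without. Each vertebral EMB+ library was above 5 FPKM and every other library was below that, while the long bone groups overlapped. The gene rose by 1.39 (SE 0.16, adjusted p = 1.96e-07) and 1.42 (SE 0.16, adjusted p = 1.07e-07) in the vertebral sources. In long bone it was lower in EMB+ cells at -0.46 (SE 0.16, adjusted p = 0.0301), a call lost without EMB- replicate 3 (0.162), EMB+ replicate 1 (0.0975) or EMB+ replicate 2 (0.0607). The difference between the vertebral GFP- and the long bone change, 1.89 (SE 0.23, adjusted p = 1.36e-06), was the largest of any guidance gene.

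Epha2, a receptor for ephrin-A1, rose with EMB in all sources, by 1.31, 1.26 and 0.98. Its levels were 3.36 to 5.30 FPKM in vertebral GFP+ EMB+ cells and 2.82 to 3.90 in GFP- EMB+ cells, above the 0.978 to 1.19 and 0.597 to 0.938 of their EMB- counterparts. Long bone cells had more, at 8.25, 9.16, 10.8 and 9.36 FPKM with EMB and 3.66, 3.84, 4.56 and 4.96 without. Efna1, its ligand, was abundant and had similar averages in all groups, from 23.2 to 27.4 FPKM, and it passed the threshold in no comparison. Under median-ratio scaling Efna1 was lower in EMB+ cells of both vertebral sources (adjusted p 0.026 and 0.00895).

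Efnb2, which encodes ephrin-B2, behaved differently in the vertebral lineages. In GFP+ cells it measured 3.83, 5.13, 4.75 and 4.04 FPKM with EMB and 4.77, 4.49, 3.99 and 4.54 without, and the groups overlapped. In GFP- cells it measured 2.15, 3.50, 3.23 and 2.97 with EMB and 6.43, 7.65, 6.34 and 6.46 without, and each EMB+ library was below all EMB- libraries. The changes were -0.01 (SE 0.18, adjusted p = 0.977) and -0.97 (SE 0.18, adjusted p = 6.2e-05). Long bone levels were 6.04, 8.13, 10.2 and 9.44 FPKM with EMB and 6.40, 9.27, 9.13 and 4.37 without, a change of 0.22 (SE 0.18, adjusted p = 0.363). The change in GFP+ cells exceeded that in GFP- cells by 0.96 (SE 0.25, adjusted p = 0.0188), a call lost without vertebral GFP- EMB+ replicate 1 (0.0519), and the change in GFP- cells differed from that in long bone by -1.19 (SE 0.25, adjusted p = 0.000810).

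**Figure D3:**
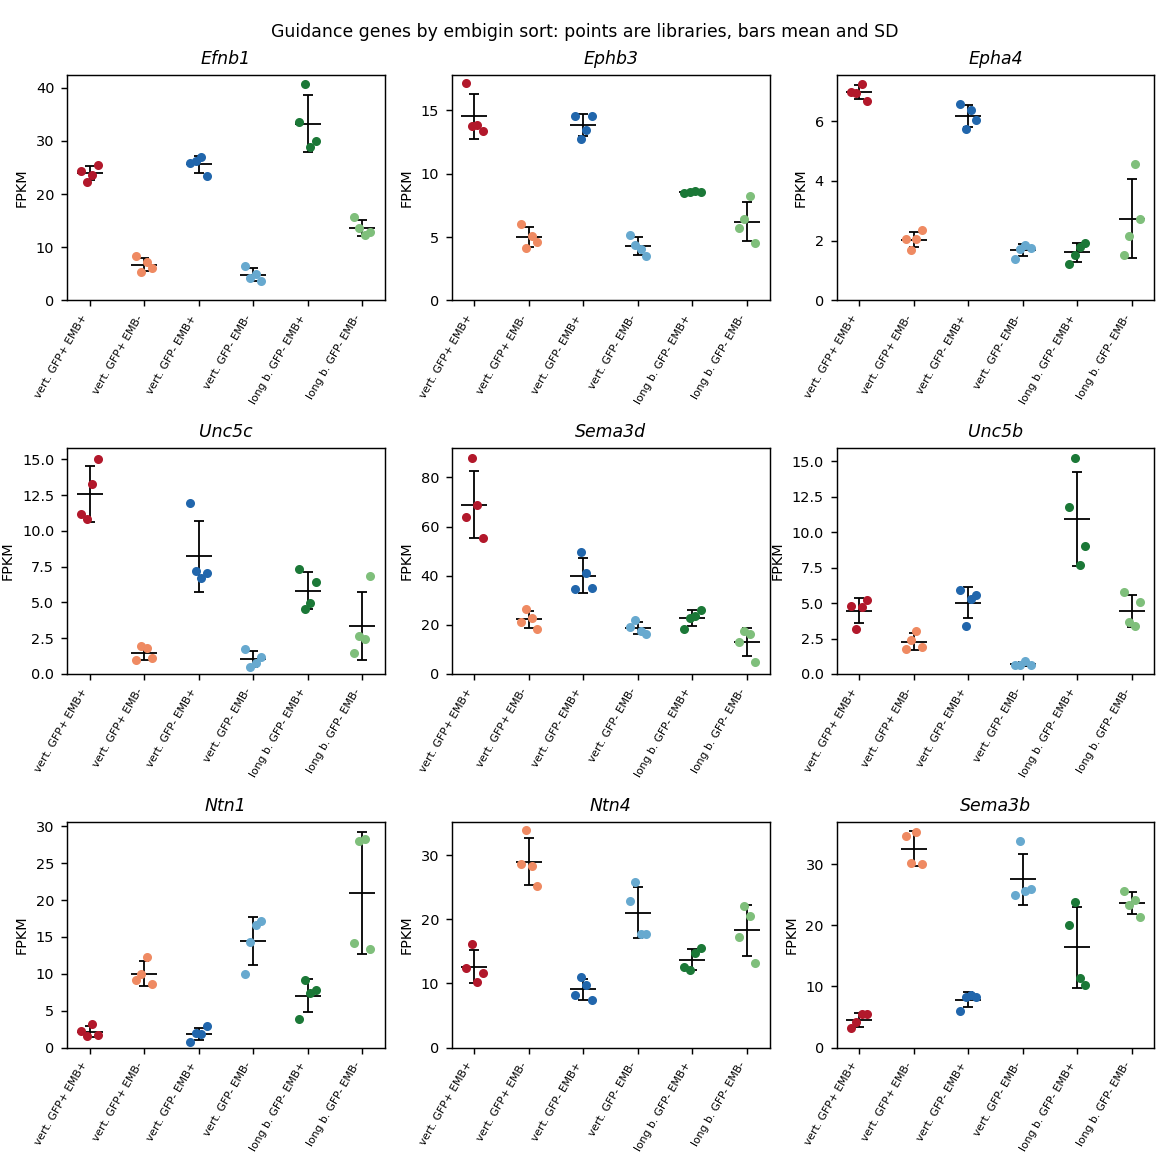
FPKM of 9 guidance genes in the 6 sorted groups, with a point for each library, a horizontal bar for the mean and whiskers for the SD of 4 libraries. Efnb1 is above its EMB- counterpart in all 3 sources, Epha4 exceeds 5 FPKM only in vertebral EMB+ libraries, and Ntn1 is lower in EMB+ cells of each source.

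Ntn1 fell while both Unc5 receptors tested, Unc5b and Unc5c, rose in EMB+ cells of each source. Ntn1 encodes netrin-1, known in mouse bone for restraining osteoclast formation with Unc5b, and lies at chr11:68209364-68400823 on the minus strand. Its levels in vertebral GFP+ cells were 2.22, 1.53, 3.14 and 1.66 FPKM with EMB and 9.19, 10.0, 12.3 and 8.57 without. Their GFP- counterparts had 0.753, 1.97, 1.77 and 2.86 with EMB and 9.95, 14.3, 16.6 and 17.1 without. Long bone cells had 3.91, 9.19, 7.35 and 7.76 FPKM with EMB and 14.2, 27.9, 28.3 and 13.4 without. In all 3 sources every EMB+ library was below every EMB- library, and long bone EMB- replicates 2 and 3 were far above replicates 1 and 4. The changes were -1.83 (SE 0.26, adjusted p = 3.75e-06), -2.48 (SE 0.26, adjusted p = 2.74e-08) and -1.42 (SE 0.26, adjusted p = 0.000134). Of 12 neuron and glia markers, 11 were in the table and 4 passed the filter, and the summed level of the 11 ranged from 59.1 to 72.7 FPKM in vertebral GFP+ EMB- cells, where Elavl3, Nefl and Snap25 were listed at 0, against 47.4 to 51.9 in GFP+ EMB+ cells. It was 71.5 to 121 against 52.1 to 57.5 FPKM in vertebral GFP- cells and 51.5 to 110.1 against 48.6 to 69.4 FPKM in long bone cells. Of the 11 genes, 9 averaged under 1 FPKM in each vertebral GFP+ group and 7 to 10 in the other groups, so few genes carried these sums. The part of these markers in the Ntn1 result was not tested.

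Ntn4, a netrin that binds laminin in basement membranes, was the more abundant netrin. Vertebral GFP+ cells held 12.4, 16.2, 10.2 and 11.7 FPKM with EMB and 28.7, 33.9, 28.2 and 25.2 without. The GFP- libraries measured 8.27, 11.1, 9.70 and 7.37 with EMB and 22.9, 25.8, 17.8 and 17.6 without. The vertebral groups did not overlap within either lineage. In long bone, with 12.6, 12.0, 14.7 and 15.5 FPKM in EMB+ and 17.2, 22.1, 20.5 and 13.2 in EMB- libraries, they did. The gene fell in both vertebral sources, with changes of -1.15 (SE 0.16, adjusted p = 3.04e-06) and -1.12 (SE 0.16, adjusted p = 3.57e-06). The long bone value was -0.37 (SE 0.16, adjusted p = 0.0803), which passed the threshold without EMB- replicate 4 (0.0101).

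Unc5c, a receptor through which netrins repel axons, was among the genes most raised with EMB. GFP+ vertebral cells had 11.2, 10.9, 13.3 and 15.1 FPKM with EMB against 0.985, 1.99, 1.84 and 1.13 without. GFP- vertebral cells had 12.0, 7.17, 6.74 and 7.07 against 1.75, 0.478, 0.799 and 1.20. Every vertebral EMB+ library exceeded 6 FPKM and no vertebral EMB- library reached 2 FPKM. Long bone levels were 7.32, 4.55, 4.97 and 6.47 FPKM with EMB and 1.49, 2.64, 2.48 and 6.83 without, and the highest EMB- library, replicate 4, lay within the EMB+ range. The changes were 2.46 (SE 0.26, adjusted p = 3.38e-08), 2.17 (SE 0.26, adjusted p = 1.85e-07) and 0.77 (SE 0.26, adjusted p = 0.0238). The long bone call was lost without EMB- replicates 1, 2 or 3 (0.114, 0.0542 and 0.0562) or EMB+ replicates 1 or 4 (0.0749 and 0.0607). Unc5c changed more in vertebral GFP- than in long bone cells, by 1.41 (SE 0.37, adjusted p = 0.00524).

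Unc5b, the netrin receptor also known from blood vessels, measured 4.76, 3.19, 4.72 and 5.22 FPKM in vertebral GFP+ EMB+ and 1.78, 2.43, 3.06 and 1.88 in GFP+ EMB- cells. In GFP- cells it was at 5.91, 3.41, 5.26 and 5.57 FPKM with EMB and only 0.659, 0.610, 0.888 and 0.637 without. Long bone cells had 11.8, 15.2, 7.71 and 9.03 FPKM with EMB and 5.75, 3.65, 3.39 and 5.05 without. EMB+ and EMB- libraries did not overlap in any source. The changes were 0.74 (SE 0.19, adjusted p = 0.00281), 1.81 (SE 0.19, adjusted p = 2.78e-08) and 1.11 (SE 0.19, adjusted p = 5.87e-05). In GFP+ cells the call was lost under median-ratio scaling (0.0975) and quantile normalization (0.103). The change was smaller in GFP+ than in GFP- cells, with a difference of -1.07 (SE 0.27, adjusted p = 0.0162), which missed the threshold with a pseudocount of 5 (0.195).

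Secreted class 3 semaphorins went both ways. Sema3b measured 3.13, 4.19, 5.43 and 5.45 FPKM in vertebral GFP+ EMB+ cells and 34.7, 30.1, 35.2 and 30.1 in GFP+ EMB- cells. In GFP- cells it was at 6.01, 8.26, 8.66 and 8.27 with EMB and 24.9, 33.8, 25.6 and 26.0 without. The vertebral EMB+ libraries all stayed below 9 FPKM and the EMB- libraries above 24 FPKM. Long bone values were 20.1, 23.8, 11.4 and 10.2 FPKM with EMB and 25.7, 23.3, 24.2 and 21.4 without, where EMB+ replicate 2 reached into the EMB- range. The changes were -2.61 (SE 0.19, adjusted p = 7.59e-11), -1.70 (SE 0.19, adjusted p = 8.68e-08) and -0.58 (SE 0.19, adjusted p = 0.0217), and the last was lost without EMB- replicate 1 (0.0528) or EMB+ replicates 3 or 4 (0.0968 and 0.118). Sema3e, which binds Plxnd1 directly, was at 0.981 to 1.61 FPKM with EMB and 5.44 to 6.34 without in vertebral GFP+ cells, and at 0.920 to 1.80 and 3.08 to 5.06 in GFP- cells. These groups did not overlap, and the changes were -1.53 (SE 0.18, adjusted p = 2.77e-07) and -1.11 (SE 0.18, adjusted p = 2.02e-05). Its long bone change was -0.35 (SE 0.18, adjusted p = 0.142), past the threshold without EMB- replicate 4 (0.0388). Sema5b, a transmembrane semaphorin with thrombospondin repeats, was at 0.279 to 1.17 and 0.113 to 0.698 FPKM in vertebral GFP+ and GFP- EMB+ cells and at 2.62 to 3.90 and 2.65 to 4.92 in their EMB- counterparts, changes of -1.35 and -1.67.

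Sema3d was the most abundant semaphorin and rose with EMB. Vertebral GFP+ cells held 64.1, 87.8, 68.7 and 55.2 FPKM with EMB and 21.0, 26.6, 22.7 and 18.5 without. In GFP- cells it measured 34.4, 49.6, 41.0 and 34.9 with EMB and 19.1, 22.1, 17.4 and 16.4 without. The groups did not overlap in either vertebral lineage or in long bone, where the values were 18.4, 22.7, 23.5 and 26.1 with EMB and 12.9, 17.5, 16.5 and 4.83 without. The changes were 1.58 (SE 0.24, adjusted p = 7.26e-06), 1.05 (SE 0.24, adjusted p = 0.000737) and 0.88 (SE 0.24, adjusted p = 0.00527), the second with an adjusted p of 0.052 under median-ratio scaling. Sema3c, another secreted semaphorin of the same class, went down with EMB in long bone. Its long bone levels were 5.88, 7.85, 12.0 and 11.6 FPKM with EMB and 21.7, 31.2, 35.2 and 9.97 without, with EMB- replicate 4 inside the EMB+ range, and the change was -1.22 (SE 0.25, adjusted p = 0.000546). In vertebral cells Sema3c had means of 30.3 against 20.6 and 26.1 against 18.3 FPKM, with values of 0.53 and 0.49 that passed the threshold without long bone EMB- replicate 4 (0.0151 and 0.0218). The change in vertebral GFP- cells exceeded that in long bone by 1.71 (SE 0.36, adjusted p = 0.000894).

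Sema3a and Sema4d are the semaphorins best known in bone, Sema3a for favouring osteoblasts over osteoclasts and Sema4d as an osteoclast product that restrains osteoblasts through Plxnb1. Sema3a was at 1.00, 1.02, 1.23 and 0.623 FPKM in vertebral GFP+ EMB+ cells and 4.11, 3.22, 6.56 and 2.55 in EMB- cells, without overlap, a change of -1.33 (SE 0.32, adjusted p = 0.00159). In vertebral GFP- cells it was at 1.42, 1.75, 2.73 and 3.37 with EMB and 7.57, 3.09, 2.67 and 3.17 without, with overlap, and the value was -0.58 (SE 0.32, adjusted p = 0.136). Long bone libraries had 3.41 to 8.34 FPKM with EMB and 2.98 to 12.7 without, and the value was -0.38 (SE 0.32, adjusted p = 0.395). Sema4d was low in vertebral cells, with 1.55 to 2.89 and 2.16 to 3.60 FPKM in GFP+ and GFP- EMB+ libraries and 2.67 to 3.47 and 3.31 to 4.53 in EMB- libraries. In long bone it reached 9.86, 13.2, 5.05 and 5.60 FPKM with EMB and 6.83, 6.84, 3.53 and 2.11 without, overlapping groups that differed by 0.71 (SE 0.26, adjusted p = 0.0347). That call was lost without EMB- replicates 3 or 4 (0.0874 and 0.145), without EMB+ replicates 1 or 2 (0.0996 and 0.159) and under median-ratio scaling (0.0864). The 6 osteoclast markers, of which 2 passed the filter, summed to 82.9 to 112 FPKM in long bone EMB+ cells, 90.3 to 117 in long bone EMB- cells and at most 52.2 in any vertebral library, and their part was not tested.

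Of the 6 plexins tested, receptors for semaphorins, Plxna2, Plxnb2 and Plxnd1 were higher in EMB+ cells of all 3 sources. Plxnb2 was the highest, with 40.3, 43.6, 37.0 and 40.3 FPKM in vertebral GFP+ EMB+ cells and 26.0, 25.6, 24.4 and 23.0 in EMB- cells, groups that did not overlap. Its changes were 0.68, 0.46 and 0.44 (adjusted p = 1.52e-06, 0.000193 and 0.000542), of which the second was 0.06 and not called under median-ratio scaling (0.622). Plxna3 was lower in EMB+ cells of both vertebral sources, with changes of -0.48 and -0.73. Plxnb1, the Sema4d receptor, averaged 3.61 to 5.44 FPKM in the 6 groups. It passed the threshold in long bone at 0.54 (SE 0.20, adjusted p = 0.0374), where the call was lost without EMB- replicates 1 or 4 (0.0745 and 0.175) or EMB+ replicates 2, 3 or 4 (0.0665, 0.0655 and 0.0968).

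Of the Slit ligands and their Robo receptors, Slit2, Slit3 and Robo2 rose with EMB in long bone and in vertebral GFP- cells, and none passed in vertebral GFP+ cells. Slit3 measured 16.3, 20.3, 10.2 and 9.88 FPKM in long bone EMB+ and 9.16, 10.0, 7.30 and 4.61 in long bone EMB- cells, overlapping by 1 library, a change of 0.77 (SE 0.22, adjusted p = 0.00695). Slit2 changed there by 1.11 (SE 0.33, adjusted p = 0.0105) and Robo2 by 0.82 (SE 0.23, adjusted p = 0.00691). Robo1 did not pass in any EMB comparison, with adjusted p-values of 0.188, 0.131 and 0.394, but did in both vertebral comparisons without long bone EMB- replicate 4 (0.0336 and 0.0159). In vertebral GFP- cells Slit2, Slit3 and Robo2 changed by 0.88, 0.57 and 0.68 (adjusted p = 0.0273, 0.0290 and 0.0148), and all of them missed the threshold under median-ratio scaling (0.177, 0.388 and 0.0809). Single libraries decided these calls. Slit2 lost its call without vertebral GFP- EMB- replicates 2 or 4 (0.0693 and 0.0551) or EMB+ replicates 3 or 4 (0.072 and 0.0647). For Slit3 these were EMB- replicates 1 or 4 (0.084 and 0.0812) and EMB+ replicates 1 or 3 (0.0875 and 0.0594), and for Robo2 EMB- replicate 3 (0.0531) and EMB+ replicate 1 (0.0515).

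Coreceptors and signalling partners of these families were followed as a list of 56 genes, 45 of them tested. With EMB, 19 were higher and 7 lower in vertebral GFP+ cells, 21 and 6 in vertebral GFP- cells and 15 and 7 in long bone cells. Of all genes 42.1%, 41.7% and 17.5% were higher and 7.85%, 10.6% and 16% lower in these sources. In the vertebral sources the share of higher partners was thus near that of all genes as deposited. In long bone cells the share of higher partners was above that of all genes, as was the share of lower partners in vertebral GFP+ cells. Partner counts under the other scalings are not given here. Nrp1, the neuropilin that secreted semaphorins such as Sema3a use, measured 10.9, 11.6, 13.1 and 12.8 FPKM in vertebral GFP+ EMB+ cells and 1.47, 2.04, 1.86 and 1.58 in EMB- cells. It was at 10.5, 11.3, 11.0 and 11.1 with EMB and 1.19, 0.398, 0.794 and 0.622 without in GFP- cells, and at 13.3, 12.9, 14.1 and 12.8 with EMB and 7.41, 7.19, 7.41 and 7.14 without in long bone. No groups overlapped within a source, and the changes were 2.26 (SE 0.12, adjusted p = 1.24e-13), 2.79 (SE 0.12, adjusted p = 1.52e-15) and 0.78 (SE 0.12, adjusted p = 1.01e-05). Nrp2 rose by 1.10, 2.44 and 1.63. Flrt2 and Flrt3, membrane proteins that bind Unc5 receptors, rose too. Flrt2 changed by 2.22, 2.84 and 0.77 and Flrt3 by 1.57, 1.98 and 0.96. In the other direction, Mical1 and Dpysl2, which act inside the cell downstream of semaphorins, fell in all 3 comparisons, with changes for Mical1 of -0.62, -0.74 and -0.43 and for Dpysl2 of -0.82, -0.49 and -0.34.

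Markers of other cell types and of the cell cycle also differed with the EMB sort. In vertebral EMB+ cells 11 of 12 cartilage markers were higher and 7 of 8 tendon and ligament markers lower, in both lineages, and in long bone 9 of 12 were higher and 4 of 8 lower. The cartilage list did not sum higher with EMB in vertebrae. It summed to 53268 to 56678 FPKM in vertebral GFP+ EMB+ and 55221 to 58550 in GFP+ EMB- libraries. In the GFP- groups it summed to 53975 to 55855 and 56692 to 61388, and in long bone to 30092 to 43863 and 30578 to 40792. The tendon list summed to 3855 to 4521 FPKM in vertebral GFP+ EMB+ and 5728 to 6518 in GFP+ EMB- libraries, to 3340 to 4016 and 5031 to 6079 in the GFP- groups, and to 2715 to 3980 and 3111 to 4458 in long bone. Of 15 cell cycle genes, 15 were higher with EMB in vertebral GFP+ cells, 1 was higher and 5 lower in vertebral GFP- cells, and 15 were lower in long bone cells. Of 11 osteoblast markers, 6 were higher and 3 lower in vertebral GFP+ cells, 8 and 0 by limma in vertebral GFP- cells, and 5 and 2 in long bone cells. Their sum was lower with EMB in vertebral GFP+ cells, at 6068 to 7102 against 7721 to 8219 FPKM. It was 6902 to 8728 against 4219 to 5214 in vertebral GFP- cells and 14997 to 32288 against 12367 to 21983 in long bone. Leukocyte markers, of which 6 of 7 were higher with EMB in vertebral GFP- cells, summed there to 442 to 3258 FPKM with EMB and 132 to 551 without. Of 10 fibroblast and periosteum markers, 2 were higher and 6 lower in vertebral GFP+ cells, 4 and 6 in vertebral GFP- cells, and 1 and 4 in long bone cells. Skeletal muscle markers, 3 of 4 lower with EMB in long bone, summed there to 54.1 to 60.5 FPKM with EMB and 356 to 832 without. Erythroid transcripts summed to 7506 to 12704 FPKM in vertebral GFP- EMB- and 20818 to 43907 in long bone EMB- libraries, against 127 to 989 in the 4 other groups, and all 10 erythroid genes tested were lower with EMB in these sources. The part of these markers in the guidance gene results was not tested.

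How the EMB change differed between sources was tested as a difference of changes. Between the vertebral lineages Efnb2 and Unc5b differed, out of 44 genes, beside 4.87% of all genes in either direction. Between vertebral GFP- and long bone cells 18 of 44 differed, beside 29.8% of all genes. Of the guidance genes 8 differed upward and 10 downward, beside 24.7% and 5.07% of all genes. By median ratio the split was 6 and 11, beside 10.5% and 8.84%, and by quantiles 7 and 12, beside 10.4% and 10.6%. Besides Epha4, Sema3c and Unc5c, Ephb3 changed more in vertebrae by 1.07 (SE 0.19, adjusted p = 0.000194) and Efnb1 by 0.99 (SE 0.20, adjusted p = 0.000467). On the other side Sema5b differed by -1.35 (SE 0.26, adjusted p = 0.000426), Sema3b by -1.12 (SE 0.27, adjusted p = 0.00316) and Sema4d by -1.13 (SE 0.36, adjusted p = 0.0205). The last missed the threshold without long bone EMB+ replicate 2 (0.0562) and in a fit of the 4 compared groups (0.0506).

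**Figure D4:**
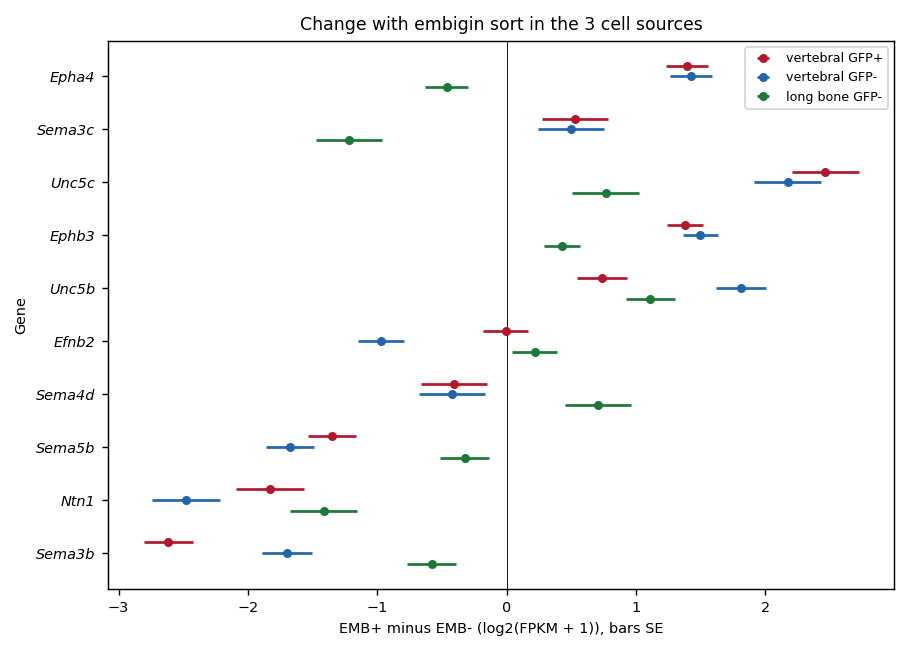
Change between EMB+ and EMB- cells on log2(FPKM + 1) for 10 guidance genes in vertebral GFP+ (red), vertebral GFP- (blue) and long bone cells (green), with bars of 1 SE. Epha4 is 1.39 and 1.42 in the vertebral sources and -0.46 in long bone, and Sema3c is above 0 in vertebrae and -1.22 in long bone.

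GFP+ and GFP- vertebral cells were compared to ask which guidance genes go with the Zic1 lineage label. Among EMB+ cells 2 of 44 genes were higher and 0 lower in GFP+ cells by limma, beside 0.391% and 1.71% of all genes. At an unadjusted p under 0.05, 10 were higher and 3 lower, beside 2.98% and 5.40% of all genes. Of 7 leukocyte markers tested, 5 were lower in GFP+ EMB+ cells, with sums of 22.4 to 212 FPKM against 442 to 3258 in GFP- EMB+ cells, and their part was not tested. Epha3, a receptor for A-type ephrins, measured 11.0, 11.9, 10.3 and 11.2 FPKM in GFP+ EMB+ cells and 4.54, 6.52, 6.17 and 4.68 in GFP- EMB+ cells, without overlap, a change of 0.91 (SE 0.20, adjusted p = 0.00802) that missed the threshold with a pseudocount of 0.1 (0.123). Sema4c, a transmembrane ligand of Plxnb2, measured 5.00, 4.43, 4.16 and 4.08 against 3.02, 2.72, 2.35 and 2.58 FPKM, also without overlap. Its change was 0.56 (SE 0.13, adjusted p = 0.0148), lost without GFP+ EMB+ replicate 1 (0.0697) or GFP- EMB+ replicate 3 (0.0701).

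Among EMB- cells, again 2 genes were higher and 0 lower in GFP+ cells, beside 2.25% and 6.22% of all genes, with 8 and 3 at an unadjusted p under 0.05, beside 5.86% and 12.0% of all genes. All 15 cell cycle and all 10 erythroid genes tested were lower and 7 of 11 osteoblast markers and 5 of 10 fibroblast and periosteum markers higher in GFP+ EMB- cells. The cell cycle genes summed to 51.2 to 60.6 FPKM in GFP+ and 277 to 375 in GFP- EMB- libraries, and the part of these markers was not tested. With the replicate number as a block, 4 genes passed, Efnb1 (0.0402) and Ntn4 (0.0344) in addition. Unc5b, at 1.78, 2.43, 3.06 and 1.88 FPKM in GFP+ and 0.659, 0.610, 0.888 and 0.637 in GFP- EMB- cells, changed by 0.94 (SE 0.19, adjusted p = 0.00135), and the groups did not overlap. It missed the threshold with a pseudocount of 5 (0.0782). Sema4c was at 6.48, 5.58, 4.44 and 5.55 and 3.77, 3.74, 4.93 and 3.12 FPKM, overlapping groups, with a change of 0.42 (SE 0.13, adjusted p = 0.0438). That call was lost in 12 of the fits that left out a library, with adjusted p-values of 0.0506 to 0.169: GFP+ EMB- replicates 1, 2 and 4, GFP- EMB- replicates 1, 2 and 4, GFP+ EMB+ replicates 2, 3 and 4, GFP- EMB+ replicates 2 and 4, and long bone EMB+ replicate 3. Without long bone EMB- replicate 4, 5 genes were higher and 1 lower, the added ones being Efnb1, Ntn4 and Sema3f (0.0392, 0.0356 and 0.0458) and, lower, Efnb2 (0.0215). Shares of all genes are not given here for this fit or for that with the block.

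The comparison by site asked which guidance genes differ between vertebral and long bone cells of the same embigin state. Among EMB+ cells, 5 of 44 genes were higher and 19 lower in vertebral GFP- than in long bone cells. The shares over all genes were 8.49% and 10.6%. Both other scalings gave the same split, beside 7.47% and 11% by median ratio and 9.18% and 10.6% by quantiles. Vertebral GFP+ cells against the same long bone libraries gave 6 higher and 20 lower, beside 8.66% and 12.9%. By median ratio the split was 6 and 17, beside 8.63% and 12.5%, and by quantiles 6 and 15, beside 11.3% and 11.1%. Among EMB- cells the median of all genes was itself shifted by -0.28 and -0.27. There, 5 genes were higher and 19 lower in vertebral GFP- cells, beside 8.05% and 40.2% of all genes, and 5 and 20 in vertebral GFP+ cells, beside 7.40% and 40.4%. As deposited, the EMB- shares of lower guidance genes were near those of all genes. Scaled by median ratio the splits became 8 and 15 for GFP- cells, beside 15.9% and 22.6% of all genes, and 9 and 13 for GFP+ cells, beside 17.1% and 23.8%. By quantiles they were 10 and 15 beside 21.1% and 19.6%, and 12 and 10 beside 27.1% and 18.4%. Markers moved with the site in EMB- cells too. Among them 15 of 15 cell cycle, 10 of 10 erythroid, 3 of 4 skeletal muscle and 6 of 7 pericyte and smooth muscle genes were lower in either vertebral lineage, as were 10 of 11 osteoblast markers in GFP- and 9 of 11 in GFP+ cells. The osteoblast markers summed to 4219 to 5214 and 7721 to 8219 FPKM in vertebral GFP- and GFP+ EMB- libraries and 12367 to 21983 in long bone EMB- libraries, and the part of these markers was not tested.

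Slit3 separated the sites in every library. It encodes a secreted ligand known in mouse bone for acting on vessels and bone cells, and lies at chr11:35121224-35708507. Long bone EMB+ libraries had 16.3, 20.3, 10.2 and 9.88 FPKM, while vertebral EMB+ libraries had 4.22, 2.67, 3.61 and 3.29 in GFP- and 2.93, 2.04, 3.84 and 3.02 in GFP+ cells. Without EMB the long bone values were 9.16, 10.0, 7.30 and 4.61, against 1.51, 2.47, 2.47 and 1.57 in GFP- and 2.48, 2.00, 2.93 and 2.42 in GFP+ vertebral cells. Each long bone library was above every vertebral library. Vertebral GFP- cells were lower, with differences of -1.72 (SE 0.22, adjusted p = 1.38e-06) with EMB and -1.52 (SE 0.22, adjusted p = 3.47e-06) without. For GFP+ cells the values were -1.90 (SE 0.22, adjusted p = 2.16e-07) and -1.31 (SE 0.22, adjusted p = 1.9e-05).

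Slit2, Robo1 and Robo2 were lower in vertebrae among EMB+ cells as well. Slit2 had 7.62, 13.8, 6.53 and 8.18 FPKM in long bone EMB+ cells against 2.20, 3.30, 4.25 and 4.01 in vertebral GFP- EMB+ cells, a change of -1.15 (SE 0.33, adjusted p = 0.0130), lost without vertebral GFP- EMB+ replicate 1 (0.0556) or long bone EMB+ replicate 2 (0.0665). Among EMB- cells, long bone replicate 4 had the lowest Slit2 value of all libraries, 0.535 FPKM. The GFP+ comparison there stood at -0.64 (SE 0.33, adjusted p = 0.113) and passed without that library (0.00011). The GFP- comparison, -0.92 (SE 0.33, adjusted p = 0.0232), was lost without vertebral GFP- EMB- replicate 2 (0.0625) or long bone EMB- replicates 1 or 2 (0.0955 and 0.12) and under both scalings (0.0816 and 0.0822). Robo1, a receptor for Slits, was at 5.63, 7.73, 7.90 and 8.91 FPKM in long bone EMB+ cells and at 2.89, 2.44, 2.26 and 1.81 in vertebral GFP- EMB+ cells, without overlap, a change of -1.34 (SE 0.25, adjusted p = 0.000242). Robo2 was at 5.67, 7.30, 3.63 and 3.89 and 1.46, 0.957, 1.19 and 0.681 FPKM in these groups, without overlap, and changed by -1.54 (SE 0.23, adjusted p = 1.5e-05). Among EMB- cells Robo1 and Robo2 were lower in vertebral GFP- cells, with differences of -1.51 and -1.40 (adjusted p = 2.54e-05 and 2.05e-05), and in vertebral GFP+ cells, with differences of -1.16 and -0.96 (0.000428 and 0.00114).

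The EMB+ and EMB- comparisons of a vertebral lineage with long bone share no library. Same-numbered vertebral EMB+ and EMB- libraries correlated at 0.135 to 0.236 in GFP- and 0.0971 to 0.279 in GFP+ cells, so these comparisons may not be independent. For GFP- cells, 11 of 44 genes were lower in vertebrae in both, beside 7.40% of all genes: Epha2, Plxna1, Plxna2, Robo1, Robo2, Sema4c, Sema5a, Sema7a, Slit2, Slit3 and Unc5b. Under each other scaling 10 of them remained, all but Slit2, beside 6.11% of all genes by median ratio and 5.55% by quantiles. For GFP+ cells 14 were lower in both, beside 8.28% of all genes, and 8 by median ratio beside 5.74% or 5 by quantiles beside 4.37%. Epha2, Robo1, Robo2 and Slit3 were lower in vertebrae in each of the 4 comparisons under all 3 scalings. Plxna1 and Sema4c share 10.7% and 7.27% of their exonic bases with an overlapping gene, and Efna4 10.5%, so part of their signal is uncertain in data without strand.

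**Figure D5:**
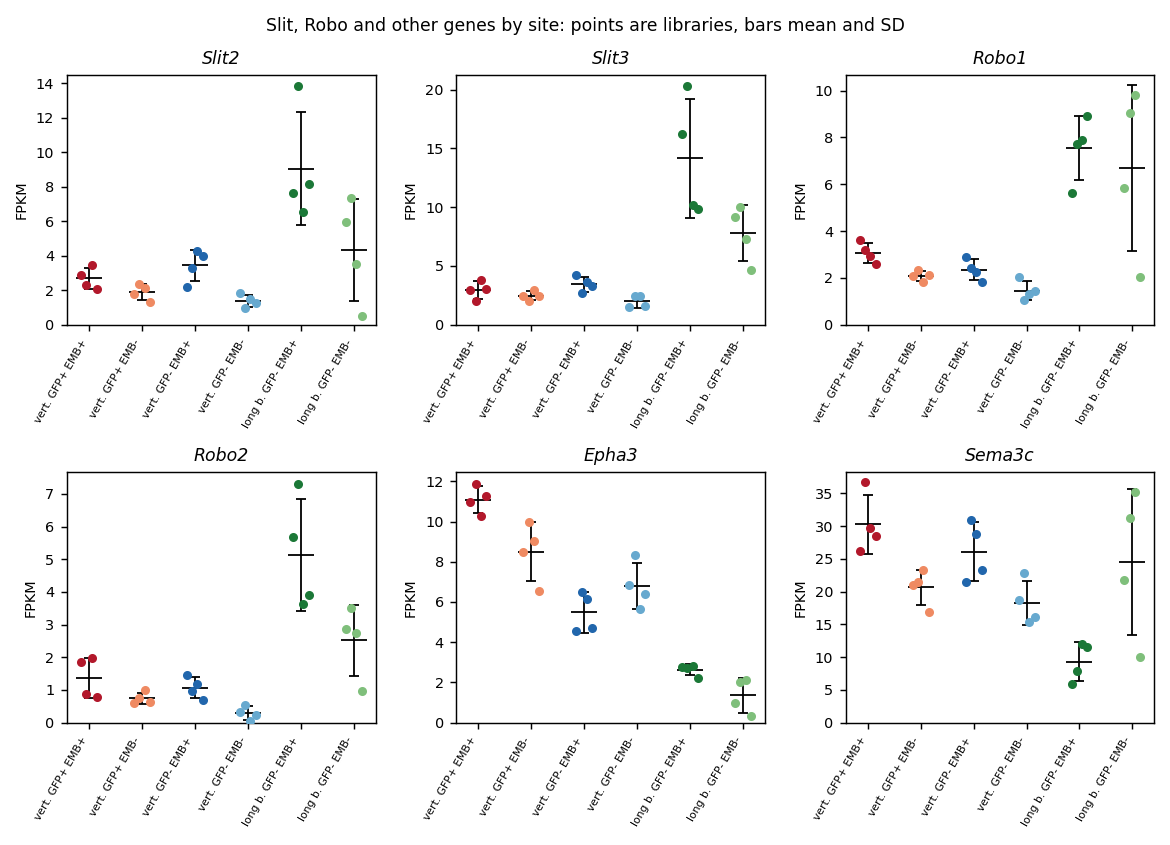
FPKM of 6 guidance genes in the 6 sorted groups, with a point for each library, a horizontal bar for the mean and whiskers for the SD of 4 libraries. All long bone libraries are above all vertebral libraries for Slit3, all vertebral libraries are above all long bone libraries for Epha3, and Sema3c is low only in long bone EMB+ libraries and long bone EMB- replicate 4.

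Some genes were higher in vertebrae. Epha3 was at 2.76, 2.72, 2.80 and 2.22 FPKM in long bone EMB+ and 0.961, 2.00, 2.14 and 0.315 in long bone EMB- cells. Vertebral GFP- cells had 4.54, 6.52, 6.17 and 4.68 with EMB and 6.82, 8.31, 5.63 and 6.40 without, and GFP+ cells without EMB had 8.47, 9.98, 9.01 and 6.52. All 16 vertebral libraries were above all long bone libraries. The gene was higher by 0.83 (SE 0.20, adjusted p = 0.00305) and 1.80 (SE 0.20, adjusted p = 7.27e-08) in GFP- cells with and without EMB, and by 1.74 (SE 0.20, adjusted p = 2.08e-07) and 2.08 (SE 0.20, adjusted p = 3.09e-09) in GFP+ cells. Sema3d was also higher in all 4 comparisons, by 0.79, 0.62, 1.55 and 0.86 in the same order (adjusted p = 0.0192, 0.0326, 1.7e-05 and 0.00436). The GFP- EMB+ value of Sema3d was lost without vertebral GFP- EMB+ replicate 2 (0.0752) or long bone EMB+ replicate 1 (0.0681). Its GFP- EMB- value was lost without vertebral GFP- EMB- replicates 1 or 2 (0.0606 and 0.0915) and fell to 0.25 without long bone EMB- replicate 4 (0.187). Among EMB+ cells Sema3c and Epha4 were higher in vertebrae too, Sema3c by 1.43 and 1.64 and Epha4 by 1.47 and 1.62 for GFP- and GFP+ cells.

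Among EMB+ cells, netrin-1 and several semaphorins were lower in vertebrae. Ntn1, with the values given above, differed by -1.51 (SE 0.26, adjusted p = 0.000110) in GFP- and -1.34 (SE 0.26, adjusted p = 0.000365) in GFP+ EMB+ cells. Sema3b and Sema3e differed by -0.91 and -1.09 in GFP- and -1.59 and -1.09 in GFP+ EMB+ cells. Sema4d differed by -1.23 (SE 0.26, adjusted p = 0.000859) and -1.53 (SE 0.26, adjusted p = 5.56e-05). Markers of other cell types differed by site among EMB+ cells as well. Of 11 osteoblast markers, 1 was higher and 5 lower in vertebral GFP- cells and 2 were higher and 6 lower in GFP+ cells, and they summed to 6068 to 8728 FPKM in vertebral EMB+ and 14997 to 32288 in long bone EMB+ libraries. Of 12 cartilage markers, 10 were higher and 2 lower in either vertebral lineage, and of 10 fibroblast and periosteum markers 6 were lower in either. The part of these markers in the results was not tested.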

How the data were processed

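RNA was sequenced from 24 libraries in 6 groups of 4, made with a SMART-Seq and a Nextera XT kit per the labels' protocols, which do not mark strand. The authors deposited FPKM per gene, and per the submitters' processing notes bcl2fastq 2.19, STAR 2.5.2, Cufflinks 2.1.1 and GRCm38 were used. FPKM carries no read counts, so depth, and with it counting error, is unknown. Of 22053 rows, 46 with a repeated identifier, 56 with a repeated symbol and 3 with a failed estimate were left out.

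The 11767 genes that reached 1 FPKM in 4 libraries or more were tested on the log2(FPKM + 1) scale by limma (3.58.1, R 4.3.3) in 1 fit of the 6 groups with 18 residual degrees of freedom. Changes on this scale understate those of low genes. P-values were adjusted by Benjamini-Hochberg over all genes tested, with a threshold of 0.05. Data were also simulated with independent normal noise and no group differences except for genes changed in vertebral GFP+ EMB+ libraries. There, 91 of 100 genes changed by 1 and 100 of 100 changed by 2 on the log2 scale were recovered. Among 200 genes called out of 11767, 9 were unchanged. The real data hold shifts over many genes and an outlying library, so these rates need not apply to them.

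The genes and lists were chosen with earlier results of these data known. Genes described library by library were, in each comparison and direction, the largest changes past the threshold without overlap between groups and with a mean of 5 FPKM or more in the higher group, the largest differences between sources, and members known in bone. Others named with values were chosen after these were seen.

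The titles' replicate numbers were checked as pairs: deviations of same-numbered vertebral GFP+ and GFP- libraries correlated at 0.169 to 0.337 with EMB and 0.130 to 0.292 without, and those of vertebral GFP- EMB+ and EMB- libraries at 0.135 to 0.236. For vertebral GFP+ EMB+ and EMB- libraries they were 0.0971 to 0.279, where 1 pair missed the minimum of 0.1. Alternatives were pseudocounts of 0.1 and 5, no filter, a filter of 5 FPKM, quantile normalization, median-ratio scaling over 4841 genes, a fit of the compared groups, the replicate number as a block, and leaving out each library. Gene positions are those of the deposited table counted from 1, and promoters came from RefSeq on GRCm38.p6.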

Additional observations from a re-analysis of the deposited data

Results flagged for a closer look

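In 9 of 126 groups of 4 libraries examined, 1 library lay far from the others of its group, and chance alone marks about 1 in 20 groups. In vertebral GFP- EMB- cells, Efnb2 was 7.65 FPKM in replicate 2 against 6.34 to 6.46 in the others. Epha2 was 0.597 FPKM in replicate 3 of that group against 0.901 to 0.938, Sema3a was 7.57 in replicate 1 against 2.67 to 3.17, and Sema3b was 33.8 in replicate 2 against 24.9 to 26.0. In vertebral GFP- EMB+ cells, Plxnb1 was 6.09 FPKM in replicate 3 against 3.75 to 4.09, Sema3b was 6.01 in replicate 1 against 8.26 to 8.66, and Unc5c was 12.0 in replicate 1 against 6.74 to 7.17. Ephb3 was 17.1 FPKM in vertebral GFP+ EMB+ replicate 1 against 13.4 to 13.8, and Epha3 was 2.22 in long bone EMB+ replicate 4 against 2.72 to 2.80.

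The change between EMB+ and EMB- cells differed between sources, by a test of the difference itself, for several named genes. Between vertebral GFP+ and GFP- cells it differed by 0.96 for Efnb2 and -1.07 for Unc5b on log2(FPKM + 1). Between vertebral GFP- and long bone cells it differed by -1.19 for Efnb2, 1.89 for Epha4, 1.71 for Sema3c and -1.13 for Sema4d.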

How the results depend on the processing

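Counts are of guidance genes past the threshold, out of 44 tested except where the filter was changed. Except for quantile normalization, shares over all genes are not set beside these counts. The counts show only how calls depend on the setting, and a change of count may be one of all genes. A filter of 5 FPKM left fewer than 44 guidance genes to test, so a lower count there need not mean a lost call. The counts were 15 and 16 for EMB in vertebral GFP+ and GFP- cells, and 13 and 14 for vertebral GFP- and GFP+ EMB- cells against long bone. In fits of the compared groups, which use fewer libraries, they were 9 for EMB in long bone, 4 for GFP in EMB+ cells, 4 for GFP in EMB- cells and 4 for the difference between vertebral lineages. A pseudocount of 5 gave 4 for GFP in EMB+ cells, 0 for GFP in EMB- cells by limma and 1 for the difference between lineages. For GFP in EMB- cells a pseudocount of 0.1 gave 4, and the replicate number as a block gave 4. Quantile normalization gave 7 there, all higher in GFP+ cells, beside 4.1% of all genes higher and 5.8% lower. Leaving out each library gave 1 to 3 for GFP in EMB+ cells, 1 to 6 for GFP in EMB- cells, 26 to 29, 23 to 30 and 20 to 25 for EMB in vertebral GFP+, vertebral GFP- and long bone cells, 21 to 25 and 20 to 27 for vertebral GFP- against long bone with and without EMB, 21 to 27 and 22 to 29 for vertebral GFP+ against long bone, 2 to 3 for the difference between lineages and 15 to 20 for that between vertebral GFP- and long bone. The cause was not tested where the setting itself does not show it. Counted over every named gene's comparison and alternative, 3867 changes stayed on their side of the threshold, 58 lost it and 29 gained it. By limma, 0 switched direction with either fit past the threshold. A switch of direction with neither fit past it was counted among the 3867. Many of the named genes were picked for large changes, so this tally need not hold for the other guidance genes. Beside those given above, the block changed no call of a comparison by over 1.5 times. Unknown depth limits what can be said of the 21 untested genes.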
